A study of Mus musculus with 12 samples.

Results

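Mouse embryos that lack Dcaf11 and whose libraries are titled as arrested were compared with wild-type embryos, gene by gene. The comparison took in the 3 libraries titled as knockout arrest and the 2 titled as control embryo, out of 12 in the series. It covered the 10737 gene symbols, of 22619 listed, that reached 1 FPKM (fragments per kilobase of transcript, scaled to the number of mapped fragments) in at least 2 of these 5 libraries. Both groups are embryos of the C57BL/6 strain, one labelled wild type (control embryos 1 and 2) and the other Dcaf11 knock out (arrested embryos 1, 2 and 3). No other treatment or allele is given for either. RNA with a poly(A) tail was amplified by Smart-seq2, which copies whole transcripts and suits samples of few cells. A further 3 Dcaf11 knock out libraries without the word arrest in the title (KO embryos, n = 3, also C57BL/6) entered the model for its estimate of spread, and their values are given where they help to place a gene. The sources used here do not give the stage, age or sex, the embryos or cells per library, or the deleted part of Dcaf11. Nothing in the labels says that libraries of a group came from separate embryos, so the spread behind each p-value is one between libraries and may be technical. Without the stage, a difference of genotype, of arrest and of embryonic age cannot be told apart.

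The DCAF11 protein belongs to a CUL4-DDB1 ubiquitin ligase, in which it recruits the protein to be marked. A mouse oocyte stores large amounts of messenger RNA and is silent in transcription when it is fertilised. In the following divisions these maternal messages are degraded while the embryonic genome is switched on, first with a transient wave of genes at the two-cell stage, among them the Zscan4 family. Genes for ribosomes, mitochondria, splicing and protein turnover follow, and then the genes that set the first lineages, the inner cell mass and the trophectoderm.

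The libraries differed in more than their labels. FPKM summed over all genes was 339062 and 393146 in the control embryos and 480887, 520552 and 557017 in the arrested embryos. FPKM given below as deposited carry this difference. The read coverage that went with 1 FPKM rises with depth but gives no read number. It was 2.01 and 1.22 in the control embryos and 0.373, 0.523 and 0.659 in the arrested embryos, so the arrested libraries were the shallower ones. Control embryo 1, the deepest, had 6573 genes at 1 FPKM or more, against 10291 in control embryo 2 and 9060 to 9877 in the arrested embryos. The correlation of log2(FPKM + 1) across 11795 genes (not independent of each other) was 0.743 between the control embryos, 0.866 to 0.902 between the arrested embryos and 0.507 to 0.653 between the groups. Because control embryo 1 stood apart, results that rest on it are given without it as well. Dppa3, a maternal-effect gene of early embryos and germ cells, was at 4949 and 12398 FPKM in the control libraries, and 21963, 30499 and 25965 in the arrested ones. These values were not set against libraries of the series that are not embryos, so they do not check the embryo label. Dcaf11 itself (mm9 chromosome 14, 56178866 to 56188902) stood at 2.82 and 14.3 FPKM in the control libraries, and 4.43, 0.422 and 6.02 in the arrested ones. The groups overlapped (log2 fold change −1.02 ± 0.95, limma adjusted p = 0.449), and since the values cover the whole gene they do not check the labels. Markers of other cells also moved: the summed FPKM of 13 neutrophil and macrophage markers was 70.8 and 149.7 in the control embryos, 245 to 378 in the KO embryos and 0.879 to 4.29 in the arrested embryos.

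In the arrested embryos 3146 of 10737 genes (29.3%) changed at a Benjamini-Hochberg adjusted p under 0.05 in limma. The test compared log2(FPKM + 1), and log2FC below is the difference of the group means on that scale, ± its standard error. Of these 2046 rose (19.1% of genes tested) and 1100 fell (10.2%). All but 1 of the called genes had every arrested library on the same side of both control libraries, as had 51.4% of all genes tested. The exception, Sat2, a relative of the polyamine acetyltransferase gene Sat1, was picked out after its values were seen, 0 and 16.3 against 15.6, 37.0 and 77.8 FPKM (adjusted p = 0.0497). The split between rises and falls depended on the scaling. Over all genes the median log2 fold change was 0.56 for FPKM as deposited, 0.31 for TPM (transcript shares scaled to the same total in each library), 0.10 after median-of-ratios scaling and 0.08 after quantile normalization. The calls were then 1429 higher and 1352 lower with TPM, 1361 and 1629 with median-of-ratios scaling, and 1466 and 1594 with quantile normalization. No gene that rose as deposited fell with median-of-ratios scaling, and 1204 genes were called higher and 1093 lower under all 4 scalings. With each of the 8 modelled libraries left out in turn as well, 855 of the rises and 534 of the falls passed every time. Without control embryo 1 there were 1226 rises (11.4%) and 887 falls (8.26%), and without control embryo 2 there were 2635 (24.5%) and 1065 (9.92%). Unless a dependence is stated, every gene named below as having risen or fallen passed under all 4 scalings and with each of the 8 libraries left out. Counts for the gene lists below are to be read against the shares of all genes, 19.1% higher and 10.2% lower as deposited.

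**Figure D1:**
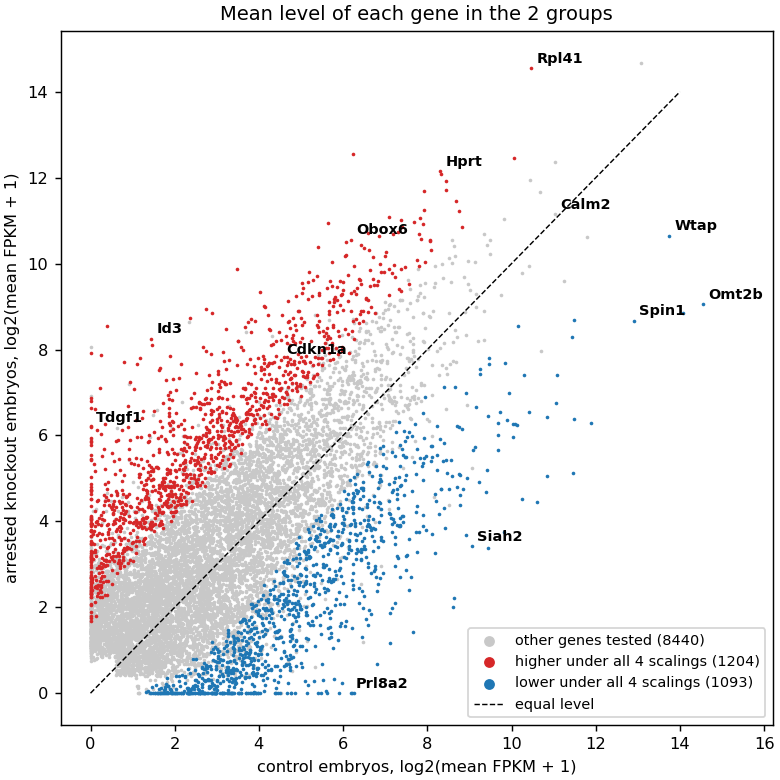
Mean level of each of the 10737 genes, as log2(mean FPKM + 1), in the 2 control embryos (horizontal axis) and the 3 arrested embryos (vertical axis). The 1204 genes called higher and the 1093 called lower under all 4 scalings lie on either side of the dashed line of equal level, and the abundant Omt2b, Spin1 and Wtap lie far below it.

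The most abundant messages exchanged places. The 10 called genes with the largest gain in mean FPKM were Rpl41, Dppa3, Gm11517, Map1lc3b, Hprt, Sat1, Mir684-1, Cks2, Znhit3 and Gcsh. Rpl41 encodes a very small protein of the large ribosomal subunit (mm9 chromosome 10, 127985166 to 127986224). Its level was 972 and 1862 FPKM in the control libraries, and 19204, 27133 and 25223 in the arrested ones (log2FC 4.13 ± 0.39, adjusted p = 0.00021). Hprt, the purine salvage enzyme, was at 226 and 407 FPKM in the control libraries, and 3836, 5105 and 4634 in the arrested ones (log2FC 3.88 ± 0.42, adjusted p = 0.000319). Sat1, which acetylates polyamines, followed the same pattern with 249 and 391 against 3743, 4799.9 and 4559.5 FPKM. The KO embryos lay between the groups for Rpl41 (5112, 3074 and 4599.6 FPKM) and nearer to the controls for Hprt (762, 399 and 867) and Sat1 (737, 552 and 666). Gcsh, a subunit of the mitochondrial glycine cleavage system, rose as well (182 and 508 against 3032, 3046 and 3932 FPKM). So did Znhit3, a factor for assembly of small nucleolar ribonucleoproteins (254 and 229 against 2118, 4043 and 3794 FPKM). Map1lc3b, which coats autophagosomes, was higher in every arrested library (1443 and 696 against 4394, 5560.2 and 6860.1 FPKM, adjusted p = 0.00169). Gm11517 (40.1 and 108 against 3171, 6442 and 8357 FPKM) and Mir684-1 (381 and 312 against 3612, 4516 and 3588 FPKM) are listed under symbols of a predicted gene and a microRNA, and poly(A) libraries do not measure the mature microRNA. The Dppa3 call was lost with any 1 of 3 libraries left out (adjusted p up to 0.193, without control embryo 1) and under 1 of the other scalings (up to 0.0856). The Cks2 call was lost without arrested embryo 2 (adjusted p = 0.0539) or without control embryo 1 (adjusted p = 0.0698) and under 1 of the other scalings (up to 0.227).

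Among the falls the largest losses of mean FPKM were those of Omt2b, Omt2a, Wtap, Spin1, Oog3, Zbed3, Sephs2, Ccdc6, Mphosph6 and Tcl1. Spin1, a reader of histone H3 methylation with a role in the oocyte, was at 4799 and 10529 FPKM in the control libraries, and 750.5, 255 and 217 in the arrested ones (log2FC −4.35 ± 0.55, adjusted p = 0.000603). Zbed3, a zinc-finger protein that is part of the oocyte's subcortical maternal complex, stood at 1869.5 and 3896 against 103, 75.0 and 70.3 FPKM (log2FC −5.03 ± 0.40, adjusted p = 0.000154). For Sephs2, which makes the selenium donor for selenoproteins, the 2 control libraries were far apart from each other and further from the arrested ones (4904 and 702 against 46.5, 28.3 and 27.1 FPKM, adjusted p = 0.000557). Wtap, a subunit of the N6-methyladenosine (m6A) writer, was the most abundant gene of control embryo 1 and far lower in control embryo 2, just above the arrested libraries (24385 and 2960.2 against 2279.6, 1671 and 854 FPKM). Its fall was −2.52 ± 0.76 on the log2 scale (adjusted p = 0.0317). The Wtap call was lost with any 1 of 3 libraries left out (adjusted p up to 0.282, without control embryo 1). Ccdc6 (1228 and 4338 against 329, 385 and 226 FPKM) and Mphosph6, a cofactor of the nuclear exosome (1768 and 3975 against 411, 342 and 482 FPKM), also fell. The KO embryos stood between the groups for Spin1 (2893, 4693 and 4516 FPKM) and Zbed3 (626, 442 and 448).

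The promoters of genes at the 2 extremes are shown because a change in RNA level can reflect transcription or decay, which these data do not separate. Each window is the 100 bases before the RefSeq transcription start on GRCm38.p6, written 5′ to 3′ on the gene's strand. Shown are the first genes with an entry among the largest gains (Rpl41, chr10:128549169-128549268, minus strand, and Map1lc3b, chr8:121590338-121590437, plus strand), among the abundant genes below 1 FPKM in both controls (Rps4x, chrX:102189392-102189491, minus strand, Uqcr11, chr10:80406822-80406921, minus strand, and Ndufs5, chr4:123718187-123718286, minus strand) and among the largest losses (Omt2b, chr9:78327930-78328029, plus strand, Omt2a, chr9:78314049-78314148, minus strand, and Wtap, chr17:12992544-12992643, minus strand). Capitals mark a match to the ETS core CCGGAAG (Rpl41 and Uqcr11), to an NRF1 site (Ndufs5) or to a CCAAT box (Omt2b). The windows of Map1lc3b, Rps4x, Omt2a and Wtap held no match to any of the 8 motifs searched.
Rpl41: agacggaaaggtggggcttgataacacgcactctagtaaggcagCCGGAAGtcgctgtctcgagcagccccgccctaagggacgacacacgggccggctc
Map1lc3b: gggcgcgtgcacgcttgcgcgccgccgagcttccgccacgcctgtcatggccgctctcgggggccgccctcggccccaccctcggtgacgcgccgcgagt
Rps4x: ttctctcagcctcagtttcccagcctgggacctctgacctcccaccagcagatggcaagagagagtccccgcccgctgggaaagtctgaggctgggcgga
Uqcr11: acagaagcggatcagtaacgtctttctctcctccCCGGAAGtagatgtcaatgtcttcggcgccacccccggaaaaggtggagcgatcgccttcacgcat
Ndufs5: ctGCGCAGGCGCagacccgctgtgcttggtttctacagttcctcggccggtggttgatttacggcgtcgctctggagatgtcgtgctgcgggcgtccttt
Omt2b: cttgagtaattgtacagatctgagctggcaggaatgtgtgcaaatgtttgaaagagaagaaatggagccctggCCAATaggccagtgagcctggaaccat
Omt2a: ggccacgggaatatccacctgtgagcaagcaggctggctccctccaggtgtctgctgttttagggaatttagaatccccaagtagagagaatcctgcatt
Wtap: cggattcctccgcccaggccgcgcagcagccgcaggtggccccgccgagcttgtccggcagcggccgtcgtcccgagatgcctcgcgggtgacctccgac
The motifs were searched on both strands of the 250 bases before the start, in the 8549 tested genes with a promoter in the RefSeq table. The ETS core was in 18.2% of the promoters of genes higher under all 4 scalings, in 8.87% of those lower, in 14.96% of all tested and in 7.05% of all 27025 promoters in the table. NRF1 sites differed less, with 9.10% of the higher and 7.74% of the lower genes against 8.95% of all tested. The CCAAT box was in 37.6% and 38.6%, against 38.0% of all tested. The TATA box (TATAAA) was in 7.45% and 8.99%, against 6.91% of all tested. The other motifs were rarer, with YY1 sites in 2.59% and 1.37% (2.21% of all tested) and CREB sites in 3.52% and 2.16% (2.95% of all tested). The OBOX-type TTAATCC was in 1.96% and 1.48%, against 1.60% of all tested. Dux sites were in 0.103% and 0.569% (1 of 967 and 5 of 879 promoters), against 0.117% of all tested. A match describes the letters in the window and is not a site of binding.

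Some genes were near absent in one group and abundant in the other. A level of at least 10 FPKM in every arrested library and under 1 in both controls was found for 67 genes (0.624% of those tested), and the reverse for 32 (0.298%). Since these were picked by both groups' values, the following is a description without a test. The 8 most abundant of the first kind were Rps4x, Uqcr11, Ndufs5, Mrps34, Ifitm2, Mnf1, Ndufs6 and Ndufa3. Of these 4 are nuclear genes of the respiratory chain, and Rps4x and Mrps34 encode proteins of the cytosolic and the mitochondrial ribosome. Ndufa3 and Ndufs6 of complex I were listed at 0 in both controls and reached 56.6, 144 and 97.7 (Ndufa3) and 105, 85.9 and 139 FPKM (Ndufs6) in the arrested embryos. Mnf1, an assembly factor of complex III, went from 0 in both controls to 111, 66.7 and 169. Ifitm2, an interferon-induced transmembrane protein gene, went from 0 and 0.348 to 53.5, 121 and 236 FPKM. The 8 most abundant of the reverse kind were Cxcl13, S100a9, Prl8a2, Olfr1300-ps1, 4931428L18Rik, 1700023L04Rik, Zscan4e and Ccng2. Cxcl13, a chemokine gene, was at 128 and 23.6 FPKM in the controls and listed at 0 in all arrested embryos, as was the prolactin family gene Prl8a2 (43.2 and 99.3). Ccng2, an atypical cyclin linked to cell cycle exit, fell from 64.2 and 25.1 to 0.484, 0.199 and 0.0201. At the lower depth of the arrested libraries a value of 0 does not show that a transcript was absent. Control embryo 1 listed 10539 symbols at 0, against 7001 in control embryo 2 and 10530 to 10956 in the arrested embryos. A value of 0 in the controls does not show absence either.

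Most genes for ribosomal proteins rose. Of 80 tested genes for cytosolic ribosomal proteins 72 rose and none fell (median log2FC 3.57, or 2.94 with median-of-ratios scaling, against 0.56 and 0.10 for all genes), and they took up 1.03% and 1.21% of all FPKM in the control embryos and 7.89%, 11.1% and 10.3% in the arrested embryos. The list summed to 37960, 57891 and 57380 FPKM in the arrested embryos, and Rpl41, at the values given above, made up a large part of this. Rpl7 of the large subunit was at 9.40 and 16.5 FPKM in the control libraries, and 299, 443 and 518 in the arrested ones (log2FC 4.92 ± 0.41, adjusted p = 0.000154), and Rps15 of the small subunit at 42.5 and 61.4 against 653, 632 and 852 FPKM. Rplp1, a protein of the ribosomal stalk, was already abundant in the controls (151 and 179 against 1712, 1978 and 2532 FPKM, adjusted p = 0.000182). Near-identical copies of such genes can share reads, so the value of a single one is less certain than that of the list. Of 77 genes for mitochondrial ribosomal proteins 60 rose and none fell (median 2.94), with Mrps18b at 0.773 and 5.02 against 127, 159 and 188 FPKM and Mrpl22 at 23.6 and 16.6 against 201, 305 and 367 FPKM. Mrpl10 did not move in that direction (18.3 and 15.2 against 9.95, 15.7 and 16.7 FPKM, log2FC −0.26 ± 0.56, adjusted p = 0.758). With median-of-ratios scaling 59 cytosolic and 47 mitochondrial genes rose, and 58 and 45 rose under all 4 scalings. Leaving out 1 library gave 63 to 72 rises for the first list and 46 to 61 for the second.

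Translation factors were mixed in detail. Of 65 tested 37 rose and 3 fell (25 and 4 with median-of-ratios scaling). Eif2s2, the beta subunit of initiation factor eIF2, was at 192 and 101 FPKM in the control libraries, and 1040.4, 1092 and 855 in the arrested ones (log2FC 2.82 ± 0.36, adjusted p = 0.000615). Members of the cap-binding eIF4E family went different ways: Eif4e2 rose (15.8 and 14.8 against 108, 119 and 120.1 FPKM, adjusted p = 0.000603) and Eif4e3 fell (97.2 and 84.6 against 11.96, 8.33 and 7.22 FPKM, adjusted p = 0.000769). Eif4enif1, which carries eIF4E and represses stored messages, fell too (54.2 and 33.2 against 14.3, 10.7 and 14.01 FPKM). So did Eef2k, the kinase of elongation factor eEF2 (3.23 and 9.29 against 0, 0.269 and 1.15 FPKM). The Eif4enif1 call was lost without arrested embryo 2 (adjusted p = 0.0681) or without control embryo 1 (adjusted p = 0.0895). The Eef2k call was lost with any 1 of 4 libraries left out (adjusted p up to 0.118, without control embryo 2). Of 23 aminoacyl-tRNA synthetase genes and their partners 8 rose and none fell (4 to 8 with 1 library left out, at 4 without arrested embryo 1 or arrested embryo 2), among them Yars, which charges tyrosine tRNA (0.412 and 1.74 against 20.4, 13.6 and 18.3 FPKM). Aars stayed at 5.73 and 4.62 and 5.08, 4.17 and 8.85 FPKM (adjusted p = 0.873). With median-of-ratios scaling 4 genes of the synthetase list rose and none fell.

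Genes of ribosome biogenesis and splicing rose in many cases as deposited, and in fewer with another scaling. Of 66 ribosome biogenesis genes 40 rose as deposited and 22 with median-of-ratios scaling, where 1 fell (28 and 4 with quantile normalization). Npm1, the nucleolar histone chaperone, was at 79.7 and 191 FPKM in the control libraries, and 1376, 2782 and 2375 in the arrested ones (log2FC 4.07 ± 0.48, adjusted p = 0.000465), and Ncl, nucleolin, at 21.5 and 52.3 against 231, 289 and 352 FPKM (log2FC 3.06 ± 0.44, adjusted p = 0.00112). Nhp2, part of the box H/ACA particles that modify ribosomal RNA and of telomerase, showed no overlap either (126 and 127 against 1008, 1022 and 1450.5 FPKM), with 1024, 697 and 1286 FPKM in the KO embryos. Of 64 spliceosome genes 31 rose and 1 fell (20 to 33 rises with 1 library left out, at 20 without arrested embryo 2, and 14 with median-of-ratios scaling). Snrpf, a core Sm protein, was listed at 0 in both control and all KO embryo libraries and at 37.7, 57.2 and 87.2 FPKM in the arrested embryos. Snrpb, its partner in the Sm ring, went from 1.35 and 10.04 to 115, 113 and 123 (adjusted p = 0.000959). Srsf10, a splicing repressor, was the one that fell (287 and 131 against 57.3, 86.2 and 83.3 FPKM, adjusted p = 0.0347). The Srsf10 call was lost with any 1 of 6 libraries left out (adjusted p up to 0.181, without control embryo 1). Of 25 genes for hnRNP proteins and mRNA export 8 rose and none fell as deposited, and 3 rose and 1 fell with median-of-ratios scaling, a share near that of all genes (12.7% higher). Hnrnpc was at 41.1 and 74.4 against 177, 252 and 283 FPKM. Hnrnpa1 was at 194 in arrested embryo 1 and listed at 0 in the other two, against 11.3 and 32.6 in the controls (adjusted p = 0.556). Of 48 genes for RNA polymerase II and its general factors 20 rose and 4 fell. Tceb1 (elongin C) was at 219 and 265 FPKM in the control libraries, and 1554, 3299 and 2488 in the arrested ones (log2FC 3.27 ± 0.43, adjusted p = 0.000709), and the polymerase subunit gene Polr2h at 79.6 and 120.5 against 533, 448 and 552 FPKM. Among the falls were Gtf2a1 of TFIIA (235 and 309 against 70.4, 50.6 and 38.3 FPKM, adjusted p = 0.00197) and the TBP-like factor Tbpl1 (19.97 and 41.9 against 4.16, 4.24 and 0.278 FPKM, adjusted p = 0.0069). In the KO embryos Gtf2a1 was at 269.6, 202 and 274 FPKM and Tbpl1 at 63.2, 57.1 and 50.7, above every arrested library.

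Nuclear genes of the respiratory chain and of mitochondrial import mostly rose. Of 73 tested nuclear genes of respiratory chain complexes I to V 51 rose and none fell (median 2.92), and they held 0.641% and 1.06% of all FPKM in the control embryos and 3%, 3.09% and 3.52% in the arrested embryos. With median-of-ratios scaling 42 of them rose and 1 fell. Uqcrh of complex III was at 31.3 and 38.2 FPKM in the control libraries, and 543, 579 and 617 in the arrested ones (log2FC 4.03 ± 0.33, adjusted p = 0.000154). Of 50 genes of mitochondrial import and assembly 32 rose and 2 fell (28 and 4 with median-of-ratios scaling). Tomm20, the import receptor of the outer membrane, was at 182 and 133 against 1452, 1565 and 2113 FPKM (log2FC 3.43 ± 0.35, adjusted p = 0.000278). The inner membrane translocase gene Timm17a stood at 47.6 and 81.7 against 913, 1242 and 1294 FPKM (log2FC 4.16 ± 0.36, adjusted p = 0.000164). The small intermembrane chaperones differed: Timm8a1 rose (38.1 and 94.99 against 873, 1389 and 1265 FPKM) and Timm8b fell (694 and 1137 against 215, 176 and 227 FPKM, adjusted p = 0.00214). Enzymes of the TCA cycle and pyruvate dehydrogenase rose in 7 of 21 cases and fell in 2 (4 to 8 rises with 1 library left out, at 4 without arrested embryo 2 or arrested embryo 3, and 3 rose and 2 fell with median-of-ratios scaling). Mdh2, mitochondrial malate dehydrogenase, was at 28.3 and 53.7 against 228, 178 and 197 FPKM (adjusted p = 0.00407), and Cs, citrate synthase, fell (60.3 and 44.6 against 21.5, 11.3 and 22.5 FPKM, adjusted p = 0.0343). The Cs call was lost with any 1 of 4 libraries left out (adjusted p up to 0.115, without control embryo 1). Glycolysis had 4 rises and 1 fall among 17, with Aldoa, aldolase A, at 6.35 and 3.35 against 54.0, 36.3 and 41.3 FPKM (adjusted p = 0.00449). Ldhb, lactate dehydrogenase B, stood at 42.6 and 196 against 20.9, 19.1 and 15.6 FPKM (adjusted p = 0.0188). The Ldhb call was lost without arrested embryo 3 (adjusted p = 0.0543) or without control embryo 2 (adjusted p = 0.0756). The glycolysis rises numbered 2 to 6 with 1 library left out, at 2 without control embryo 1, and 3 rose and 2 fell with median-of-ratios scaling. As deposited they were 23.5% of the list, against 19.1% of all genes.

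Gene length moved with these rises. Among genes whose longest annotated exon sum was under 1000 bases 38.0% rose and 6.13% fell (median log2 fold change 1.63), and among those of 8000 bases and over 5.45% rose and 12.5% fell (median −0.20). The median length was 992 bases in the cytosolic ribosomal list, 1046 in the respiratory chain list and 1506.5 in the proteasome list. With the trend of each library on length removed, 63 cytosolic and 51 mitochondrial ribosomal protein genes, 41 respiratory chain genes and 31 proteasome genes rose. In the growth factor and the Polycomb lists, both of long genes, the same step moved the median upward, by the values given with them below. The part of length in the remaining changes was not tested further.

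**Figure D2:**
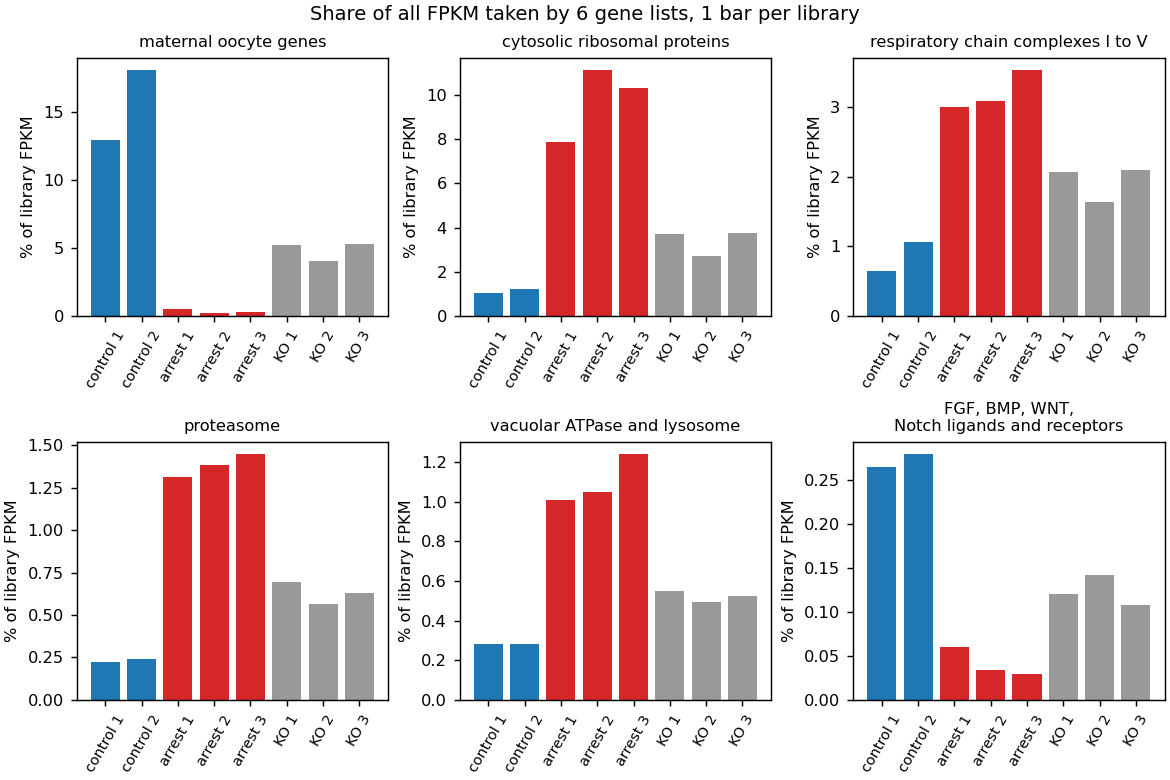
Share of the summed FPKM of each library taken by 6 gene lists, 1 bar per library, with control embryos in blue, arrested embryos in red and KO embryos in grey. Oocyte genes and the ligand and receptor list were highest in the 2 control embryos, the other 4 lists were highest in the 3 arrested embryos, and the KO embryos lay between them in all 6. Omt2b and Omt2a made up most of the oocyte share in each control embryo. Rpl41 made up a large part of the cytosolic ribosomal share in each arrested embryo.

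Most proteasome genes rose. Of 44 proteasome genes 35 rose and 2 fell (median 2.92), and 26 rose and 2 fell with median-of-ratios scaling. Psma6 of the core was at 19.2 and 13.5 FPKM in the control libraries, and 428, 639 and 475 in the arrested ones (log2FC 4.89 ± 0.39, adjusted p = 0.000154), Psmd7 of the lid at 36.2 and 48.0 against 569.8, 606 and 744 FPKM (log2FC 3.90 ± 0.33, adjusted p = 0.000154). Pomp, which assembles the core, stood at 72.1 and 49.6 against 525, 707 and 612 FPKM (log2FC 3.33 ± 0.35, adjusted p = 0.000294). The 2 that fell encode activators other than the lid and base, Psme4 (22.7 and 22.8 against 5.67, 3.97 and 5.33 FPKM, adjusted p = 0.0109) and Psme2 (2.28 and 2.03 FPKM in the controls and listed at 0 in all arrested embryos). The Psme2 call was lost with any 1 of 3 libraries left out (adjusted p up to 0.0599, without arrested embryo 2). Of 35 genes for ubiquitin and its conjugating enzymes 13 rose and 2 fell (8 to 15 rises with 1 library left out, at 8 without arrested embryo 2 or control embryo 1, and 8 rose and 4 fell with median-of-ratios scaling). Sumo2 rose (178 and 111 against 1536, 1744 and 1652 FPKM, adjusted p = 0.000237). The conjugating enzyme gene Ube2d2a fell from 1452 and 704 to 113, 51.0 and 63.1 FPKM (log2FC −3.81 ± 0.46, adjusted p = 0.000478). The ubiquitin ligase gene Siah2, which holds a RING finger, had one of the smallest p among the falls (559 and 501 against 12.1, 10.2 and 6.66 FPKM, log2FC −5.67 ± 0.38, adjusted p = 7.99e-05).

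Dcaf11's own ligase was looked at member by member. Of 32 genes of the CUL4-DDB1 ligase and the COP9 signalosome 7 rose and 2 fell, and the list's median changed sign with the scaling (0.53 as deposited, −0.05 with median-of-ratios scaling, where 5 rose and 3 fell). The 7 rises were 21.9% of the list, near the 19.1% of all genes. Ddb1, the adaptor, was at 23.2 and 12.2 FPKM in the control libraries, and 5.78, 10.7 and 12.7 in the arrested ones (log2FC −0.80 ± 0.56, adjusted p = 0.306), and the groups overlapped. Among the receptors Dcaf13, which also acts in ribosome biogenesis, rose (7.58 and 14.9 against 111, 121 and 129.9 FPKM, log2FC 3.38 ± 0.44, adjusted p = 0.000704). Dcaf6 fell (119.8 and 10.4 against 1.02, 1.87 and 2.98 FPKM, adjusted p = 0.0121). So did the scaffold gene Cul4b (27.4 and 74.3 against 16.1, 8.77 and 16.15 FPKM, adjusted p = 0.0335). The list also holds 9 subunits of the COP9 signalosome, which removes NEDD8 from cullins. Of these 4 rose and none fell as deposited, 3 of them under all 4 scalings, namely Cops5 (0 and 9.09 against 61.5, 66.6 and 51.1 FPKM), Cops6 (0.44 and 2.78 against 25.6, 41.6 and 48.5 FPKM) and Gps1 (0.111 and 0.465 against 7.38, 6.49 and 8.51 FPKM). These subunits were counted apart after their values were seen, and of all genes 19.1% rose as deposited and 11.2% under all 4 scalings. Trim28 (KAP1), the corepressor that binds KRAB zinc-finger proteins, was at 6.94 and 9.27 FPKM in the control libraries, and 21.5, 19.4 and 23.7 in the arrested ones, above both controls in every arrested library but without passing the test (log2FC 1.32 ± 0.52, adjusted p = 0.0833). Of all genes tested 33.9% lay above both controls in every arrested library. The Dcaf6 call was lost without control embryo 1 (adjusted p = 0.0837). The Cul4b call was lost with any 1 of 6 libraries left out (adjusted p up to 0.136, without control embryo 2).

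Most oocyte genes fell. Of 54 tested oocyte genes 34 fell and 1 rose (median −3.12), and they held 12.9% and 18% of all FPKM in the control embryos and 0.481%, 0.251% and 0.309% in the arrested embryos. The list summed to 43722 and 70881 FPKM in the control embryos, and Omt2b and Omt2a made up most of this. The falls numbered 30 to 33 with 1 library left out. Omt2b was at 20739 and 27071 FPKM in the control libraries, and 648, 429 and 514 in the arrested ones (log2FC −5.50 ± 0.34, adjusted p = 5.49e-05). The neighbouring Omt2a stood at 15257 and 18938 against 683, 335 and 371 FPKM (log2FC −5.27 ± 0.39, adjusted p = 0.000128), and these 2 can share reads. Oog3, of an oocyte family of leucine-rich repeat genes, stood at 1709 and 5829 against 67.5, 74.7 and 87.8 FPKM (log2FC −5.35 ± 0.51, adjusted p = 0.000217), and Tcl1b3, of the Tcl1 family clustered on chromosome 12, at 261 and 1133 against 15.04, 6.04 and 7.22 FPKM (log2FC −5.80 ± 0.61, adjusted p = 0.000303). Every arrested library was below every KO embryo library for Omt2b (10152, 7079 and 10260.0 FPKM in the KO embryos), Oog3 (1031, 536 and 935) and Tcl1b3 (83.3, 78.4 and 113). Gdf9, a growth factor secreted by the oocyte, fell (38.5 and 156 against 21.3, 21.2 and 6.92 FPKM, adjusted p = 0.0295). The zona pellucida gene Zp3 did not pass as deposited (52.3 and 27.9 against 12.96, 23.1 and 17.6 FPKM, adjusted p = 0.119) but did under the other 3 scalings. The one that rose was Khdc3, of the subcortical maternal complex (0.286 and 2.54 against 14.5, 12.9 and 26.4 FPKM, adjusted p = 0.0149). The Gdf9 call was lost without arrested embryo 3 (adjusted p = 0.0861) or without control embryo 2 (adjusted p = 0.169). The Khdc3 call was lost without arrested embryo 3 (adjusted p = 0.0554) or without control embryo 1 (adjusted p = 0.0931). C86187 of the oocyte list (943 and 2697 against 65.2, 16.23 and 15.5 FPKM) and, outside the list, Khdc1b (1672 and 2659.8 against 199.96, 155 and 149.8 FPKM, log2FC −3.65 ± 0.33, adjusted p = 0.000199) and Trim61 (765 and 1985 against 102, 76.1 and 97.9 FPKM) were among the 10 named falls with the smallest p.

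The Obox genes, oocyte-type homeobox genes in a cluster on chromosome 7, split. Of 6 tested 4 fell, among them Obox5 (371 and 1254 against 77.9, 26.5 and 45.5 FPKM, log2FC −3.88 ± 0.56, adjusted p = 0.00112), Obox1 (317 and 415 against 35.2, 10.1 and 32.7 FPKM, adjusted p = 0.000739) and Obox2 (193 and 361 against 71.3, 29.9 and 31.0 FPKM, adjusted p = 0.00299). Obox6 went the other way, with 35.6 and 108 FPKM in the control libraries, and 1030.2, 1523 and 1966 in the arrested ones (log2FC 4.53 ± 0.50, adjusted p = 0.00036), and the KO embryos were between the groups (605, 382 and 658). Genes that clear maternal messages fell more often than they rose, 11 against 3 of 39 (8 to 12 falls with 1 library left out, and 1 rose and 16 fell with median-of-ratios scaling). Btg4, the adaptor that brings the CCR4-NOT deadenylase to maternal messages, was at 527 and 1698 FPKM in the control libraries, and 141, 48.7 and 33.2 in the arrested ones (log2FC −3.93 ± 0.63, adjusted p = 0.00187), and the deadenylase gene Cnot6l at 125 and 103 against 21.4, 15.5 and 7.55 FPKM (log2FC −2.97 ± 0.49, adjusted p = 0.00216). Lsm14a (305 and 159 against 35.8, 44.8 and 33.5 FPKM) and the oocyte RNA-binding protein gene Marf1 (56.8 and 39.6 against 7.93, 3.52 and 1.72 FPKM) fell too. Parn, another deadenylase, rose (0.222 and 0.993 against 7.78, 4.79 and 5.47 FPKM, adjusted p = 0.0255). The Parn call was lost with any 1 of 4 libraries left out (adjusted p up to 0.106, without control embryo 1) and under 1 of the other scalings (up to 0.0588).

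Early genes of the embryonic genome did not move as 1 group. The 6 tested Zscan4 genes fell (5 or 6 with 1 library left out), for example Zscan4a, at 87.3 and 185 against 4.41, 2.49 and 1.03 FPKM (log2FC −5.25 ± 0.65, adjusted p = 0.000538), and Zscan4f, at 112 and 288 against 0, 5.07 and 0 FPKM (adjusted p = 0.00334). Members of this family are near identical and share reads. Of 27 other genes known from the two-cell stage 5 rose and 2 fell, and the median changed sign with the scaling (0.49 as deposited, −0.24 with median-of-ratios scaling, where 4 rose and 4 fell). The 5 rises were 18.5% of this list, near the 19.1% of all genes. Dppa2, an activator of the early embryonic genome, was at 48.2 and 47.5 FPKM in the control libraries, and 599.7, 725 and 761 in the arrested ones (log2FC 3.83 ± 0.33, adjusted p = 0.000154). Sp110 rose (20.4 and 77.9 against 259, 436 and 252 FPKM, adjusted p = 0.0034). So did Tdpoz4 (0.265 and 7.06 against 89.2, 88.9 and 63.9 FPKM, adjusted p = 0.0104). Usp17la, a deubiquitinase gene, was at 2.86 and 24.1 in the controls and listed at 0 in all arrested embryos (adjusted p = 0.0198). Zfp352, a retrotransposed zinc-finger gene of this stage, overlapped between the groups (148 and 237 against 525, 238 and 112 FPKM, adjusted p = 0.705). The Tdpoz4 call was lost without control embryo 1 (adjusted p = 0.095). The Usp17la call was lost with any 1 of 3 libraries left out (adjusted p up to 0.109, without control embryo 2).

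Lineage genes moved one by one. Of 29 pluripotency genes 9 rose and 4 fell (3 to 11 rises with 1 library left out, at 3 without control embryo 1, 4 without arrested embryo 3 and 5 without arrested embryo 2, and 4 rose and 4 fell with median-of-ratios scaling). Tdgf1 (Cripto), the co-receptor of NODAL, was listed at 0 in each control and reached 23.4, 97.0 and 96.7 FPKM in the arrested embryos (adjusted p = 0.000828), against 0.537, 0.67 and 4.14 in the KO embryos. Fbxo15, an F-box gene of pluripotent cells, was at 84.8 and 78.6 FPKM in the control libraries, and 399.7, 1120.2 and 887 in the arrested ones (log2FC 3.15 ± 0.46, adjusted p = 0.00112). Nanog was at 0.392 and 1.46 against 6.40, 4.61 and 10.9 FPKM (log2FC 2.10 ± 0.61, adjusted p = 0.0269), and Pou5f1 (Oct4) overlapped between the groups (0.663 and 8.10 against 6.15, 5.76 and 4.70 FPKM, adjusted p = 0.485). Sox2 fell (14.1 and 5.19 against 1.02, 0.772 and 0.283 FPKM, adjusted p = 0.0162). So did Tcl1, a cofactor of AKT that the oocyte list also holds (395 and 3831 against 73.6, 60.4 and 189 FPKM, adjusted p = 0.00846), and L1td1 (93.2 and 27.5 against 5.65, 7.16 and 4.03 FPKM, adjusted p = 0.00899). The Nanog call was lost without arrested embryo 3 (adjusted p = 0.0648) or without control embryo 1 (adjusted p = 0.125) and under 3 of the other scalings (up to 0.105). The Sox2 call was lost without arrested embryo 3 (adjusted p = 0.0564) or without control embryo 1 (adjusted p = 0.081). The L1td1 call was lost without control embryo 1 (adjusted p = 0.0705).

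For the trophectoderm, the outer lineage that forms the placenta, 2 of 15 genes rose and 1 fell, and the median changed sign with the scaling. Tead4, its earliest transcription factor, was at 0.329 and 0.979 FPKM in the control libraries, and 8.06, 12.2 and 31.9 in the arrested ones (log2FC 3.28 ± 0.67, adjusted p = 0.00594), and Tfap2c at 0.299 and 5.34 against 28.2, 24.9 and 16.4 FPKM (log2FC 3.04 ± 0.66, adjusted p = 0.00785). Gata3 was at 0.0869 and 13.9 in the controls, which enclose the arrested embryos (1.05, 1.10 and 4.16, adjusted p = 0.724). Tfap2a, of low level, fell (3.58 and 1.97 against 0, 0.0436 and 0.132 FPKM, adjusted p = 0.0334). In the Hippo pathway, which sets where TEAD4 is active, Stk3, an upstream kinase, fell (24.5 and 32.8 against 6.60, 2.77 and 0.278 FPKM, log2FC −3.15 ± 0.71, adjusted p = 0.00945). So did the TEAD4 coactivator gene Yap1 (60.6 and 71.9 against 33.5, 18.9 and 13.1 FPKM, log2FC −1.65 ± 0.45, adjusted p = 0.0213), with 3 of 16 members higher and 2 lower in all (1 to 3 higher with 1 library left out, at 1 without arrested embryo 1 or arrested embryo 2 or arrested embryo 3 or control embryo 1, and 1 rose and 3 fell with median-of-ratios scaling). The 3 higher Hippo genes were 18.8% of the list, near the 19.1% of all genes. Of 8 primitive endoderm genes Gata6, which specifies that lineage, rose (0.181 and 2.74 against 32.9, 12.02 and 22.1 FPKM, log2FC 3.37 ± 0.71, adjusted p = 0.00682). Sparc (7.24 and 17.7 against 0.892, 0.87 and 0.655 FPKM, adjusted p = 0.0068) and Srgn (39.3 and 109 against 6.95, 3.35 and 2.75 FPKM, adjusted p = 0.00134) fell. The KO embryos stood at 0.391, 0.0951 and 0.347 FPKM for Gata6, below every arrested library, and at 19.5, 18.1 and 25.9 for Sparc, above both controls. Of 26 genes for compaction and the blastocoel epithelium 2 rose (1 to 5 with 1 library left out, at 1 without arrested embryo 2 or arrested embryo 3 or control embryo 1 and 5 without control embryo 2) and 2 fell (1 rose and 4 fell with median-of-ratios scaling). Lower as deposited were the polarity gene Pard3 (136 and 63.9 against 7.87, 4.74 and 5.41 FPKM, log2FC −3.78 ± 0.48, adjusted p = 0.000603) and Vil1 (23.8 and 17.5 against 0, 0.642 and 1.04 FPKM, adjusted p = 0.00167). Cdh1 (E-cadherin) was at 17.4 and 10.4 against 4.99, 3.15 and 9.21 FPKM (adjusted p = 0.173). Of the primitive endoderm genes 1 rose and 4 fell with median-of-ratios scaling. The Tfap2a call was lost with any 1 of 5 libraries left out (adjusted p up to 0.123, without control embryo 1). The Yap1 call was lost without arrested embryo 2 (adjusted p = 0.0586) or without arrested embryo 3 (adjusted p = 0.0595).

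More growth factor ligand and receptor genes fell than rose. Of 28 tested FGF, BMP, WNT, Notch and related genes 10 fell and 1 rose (median −0.80, and 7 to 9 falls with 1 library left out). These are long genes (median 5630 bases), and with each library's trend on length removed 7 fell and 1 rose (median −0.19). Bmp15, another oocyte growth factor that the oocyte list also holds, was at 287 and 548 FPKM in the control libraries, and 53.3, 11.5 and 15.2 in the arrested ones (log2FC −4.16 ± 0.60, adjusted p = 0.00107). Tgfb2 stood at 63.0 and 143 against 11.8, 8.15 and 6.74 FPKM (adjusted p = 0.00124). The Notch ligand gene Jag1 stood at 255 and 55.7 against 15.5, 3.97 and 5.02 FPKM (adjusted p = 0.00379). Egfr, the epidermal growth factor receptor gene, was at 27.9 and 12.8 in the controls and at 0, 0.262 and 0 in the arrested embryos (adjusted p = 0.00115). Bmpr1a, a type I BMP receptor gene, rose (0.234 and 8.21 against 42.1, 17.8 and 22.6 FPKM, adjusted p = 0.0192). Fgf4, which signals from the inner cell mass, overlapped (5.27 and 0.958 against 7.34, 17.01 and 0.998 FPKM, adjusted p = 0.486). Among 30 genes that respond early to such signals 7 fell and 1 rose (3 to 9 falls with 1 library left out, at 3 without arrested embryo 2 or arrested embryo 3 or control embryo 1 and 4 without KO embryo 3). The one that rose, Id3, a target of BMP signalling, was at 0.275 and 3.17 FPKM in the control libraries, and 136, 123 and 652 in the arrested ones (log2FC 6.60 ± 0.82, adjusted p = 0.00054) and at 1.77, 2.77 and 5.59 in the KO embryos. Its relatives did not pass the test: Id1 was at 7.53 and 14.2 against 7.76, 3.03 and 4.82 FPKM (adjusted p = 0.318). Id2 stood at 1.08 and 55.3 against 14.3, 10.1 and 26.3 FPKM (adjusted p = 0.698). Spry4, a feedback inhibitor of FGF signalling, fell (186 and 189.9 against 22.0, 5.18 and 6.14 FPKM, log2FC −4.23 ± 0.57, adjusted p = 0.000778). So did Klf6 (12.7 and 9.48 against 0.2, 0.406 and 0 FPKM, adjusted p = 0.00175). The Bmpr1a call was lost without arrested embryo 1 (adjusted p = 0.0594) or without control embryo 1 (adjusted p = 0.113).

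**Figure D3:**
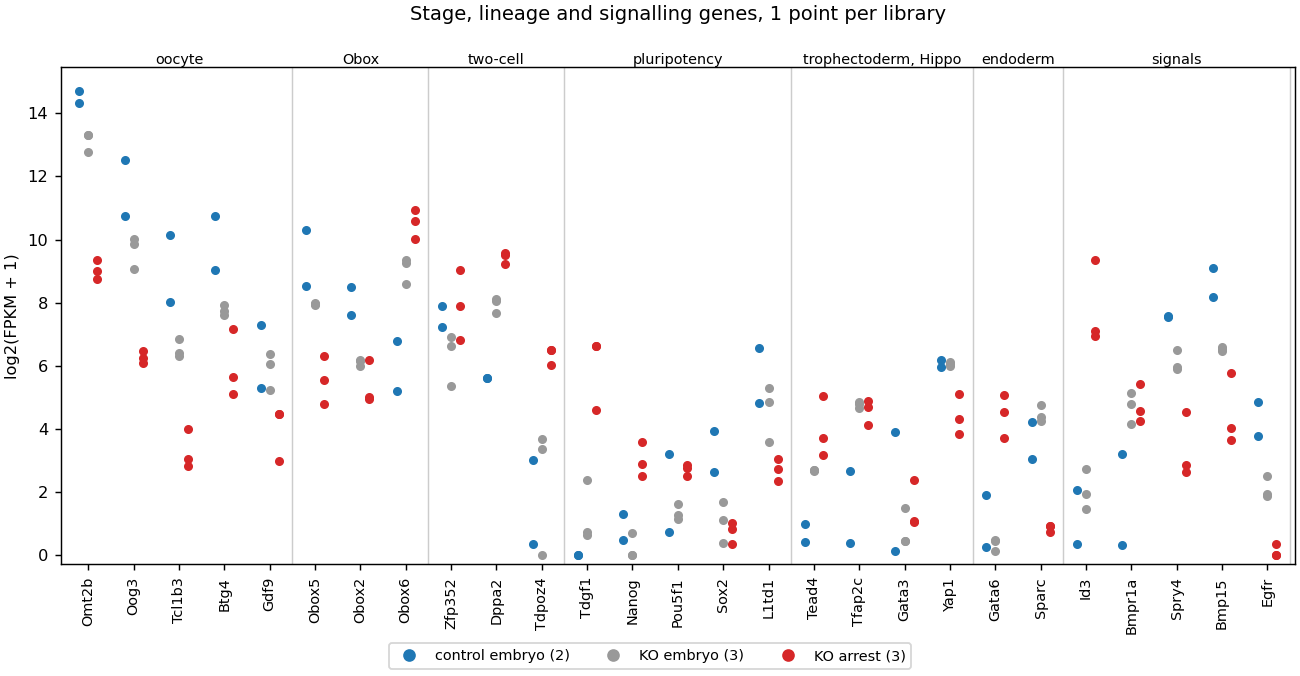
Levels of 27 stage, lineage and signalling genes as log2(FPKM + 1), 1 point per library, for the control embryos (blue), KO embryos (grey) and arrested embryos (red). The oocyte genes lie higher in both control embryos than in any arrested embryo. Obox6, Dppa2, Tdgf1, Gata6 and Id3 lie lower.

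Several targets of p53 rose and others fell. Of 41 genes for p53 targets and apoptosis 14 rose and 3 fell (median 1.70, and 9 to 23 rises with 1 library left out, at 9 without control embryo 1 and 23 without control embryo 2). Trp53 itself was at 13.3 and 13.1 FPKM in the control libraries, and 32.2, 20.4 and 16.5 in the arrested ones, above both controls in every arrested library without passing the test (log2FC 0.71 ± 0.49, adjusted p = 0.304). Such a position was shared by 33.9% of all genes tested, and the median log2FC of all genes was 0.56. Cdkn1a (p21), the cyclin-dependent kinase inhibitor, was at 13.6 and 30.7 against 150.2, 173 and 323 FPKM (log2FC 3.25 ± 0.67, adjusted p = 0.00643), and the KO embryos were within or below the controls (24.3, 4.69 and 6.55). Ccng1, which encodes a cyclin induced by p53, was at 0.141 and 6.32 against 91.0, 40.1 and 91.1 FPKM (log2FC 4.61 ± 0.77, adjusted p = 0.00229). The pro-apoptotic Bax stood at 0.233 and 10.9 against 72.4, 77.1 and 118 FPKM (log2FC 4.52 ± 0.82, adjusted p = 0.00339). Phlda3, an AKT inhibitor, was listed at 0 in both control and all KO embryo libraries and at 15.98, 3.96 and 24.0 FPKM in the arrested embryos. Not all targets rose: Rrm2b, a ribonucleotide reductase subunit (75.6 and 158 against 30.2, 21.1 and 10.53 FPKM, log2FC −2.47 ± 0.53, adjusted p = 0.00747), and Gadd45a (32.6 and 15.5 against 6.68, 1.33 and 2.84 FPKM, adjusted p = 0.016) fell. So did the oocyte gene Bcl2l10 of the BCL2 family, which is in both lists (296 and 902 against 39.4, 10.2 and 37.4 FPKM, log2FC −4.32 ± 0.66, adjusted p = 0.00144). Against the KO embryos, which share the model but are a different baseline, 9 of the 41 rose and 3 fell in the arrested embryos, where 5.7% and 3.97% of all genes did (9.67% in either direction). The Cdkn1a call was lost without control embryo 1 (adjusted p = 0.0503). The Gadd45a call was lost without arrested embryo 2 (adjusted p = 0.052) or without control embryo 1 (adjusted p = 0.0986).

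Sfn (14-3-3 sigma), an epithelial gene that p53 can induce, was among the 10 named rises with the smallest p (1.34 and 2.88 against 166, 166 and 222 FPKM, log2FC 5.93 ± 0.50, adjusted p = 0.000154). Checkpoint and repair genes did not move together: of 37 tested 6 rose and 1 fell, and the median changed from 0.58 to 0.03 with median-of-ratios scaling (where 6 rose and 2 fell, against 6 and 4 with quantile normalization). The kinase gene Chek1 fell (101 and 108 against 23.2, 14.8 and 9.25 FPKM, log2FC −2.74 ± 0.46, adjusted p = 0.00224). Rpa2, of the complex that coats single-stranded DNA, rose (1.01 and 11.9 against 71.6, 68.8 and 44.0 FPKM, adjusted p = 0.00433). So did the mismatch repair gene Msh6 (4.26 and 3.44 against 21.3, 21.2 and 31.0 FPKM, adjusted p = 0.00721). Atm and Atr were at 5.70 and 4.46 against 6.20, 6.07 and 3.93 FPKM (adjusted p = 0.946) and at 1.10 and 0.845 against 1.01, 0.0694 and 1.41 FPKM (adjusted p = 0.835). Of 21 telomere genes 6 rose and 1 fell (3 to 8 rises with 1 library left out, at 3 without control embryo 1, and 5 rose and 3 fell with median-of-ratios scaling), with the tankyrase gene Tnks2 at 1.48 and 3.95 against 19.6, 50.9 and 30.5 FPKM (adjusted p = 0.00379). The shelterin gene Terf1 stood at 21.9 and 52.6 against 56.9, 48.0 and 63.2 FPKM (adjusted p = 0.256).

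Most TRiC and prefoldin genes rose as deposited (6 of 13 with median-of-ratios scaling), and the heat shock list was split under other scalings. All 10 called genes of 13 for the TRiC chaperonin and prefoldin rose, Cct4 from 10.8 and 8.10 to 74.8, 102 and 93.6 FPKM (log2FC 3.13 ± 0.40, adjusted p = 0.000631) and the prefoldin subunit gene H2-Ke2 from 22.0 and 40.5 to 745, 679 and 828 (log2FC 4.60 ± 0.37, adjusted p = 0.000154). Of 31 heat shock and unfolded protein genes 10 rose and 3 fell (6 to 10 rises with 1 library left out, at 6 without arrested embryo 2, and 6 rose and 5 fell with median-of-ratios scaling). Hspa8, the constitutive HSP70, was at 26.4 and 56.6 FPKM in the control libraries, and 750.4, 1292 and 1959 in the arrested ones (log2FC 4.97 ± 0.49, adjusted p = 0.000262). Hsp90ab1 stood at 52.5 and 71.4 against 444, 745 and 695 FPKM (log2FC 3.30 ± 0.36, adjusted p = 0.00036). Hsf1, the heat shock transcription factor and a maternal-effect gene, fell (46.4 and 34.0 against 1.93, 2.77 and 2.55 FPKM, log2FC −3.58 ± 0.53, adjusted p = 0.0012). The integrated stress response list had 2 rises and 1 fall among 20 (1 to 5 rises with 1 library left out, at 1 without arrested embryo 2 or arrested embryo 3 or KO embryo 3 and 5 without control embryo 2, and 1 rose and 3 fell with median-of-ratios scaling), with a median that changed sign with the scaling. Asns, asparagine synthetase, rose (0 and 0.0838 against 4.72, 5.76 and 16.02 FPKM, adjusted p = 0.0101). The markers Atf4 (22.1 and 64.4 against 74.2, 73.6 and 112 FPKM, adjusted p = 0.127) and Ddit3, also called CHOP (1.85 and 43.8 against 86.9, 17.5 and 25.0 FPKM, adjusted p = 0.293), did not pass.

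Antioxidant genes rose in 14 of 30 cases and fell in 3. Park7 (DJ-1) was at 1.22 and 15.6 FPKM in the control libraries, and 112, 90.1 and 139 in the arrested ones (log2FC 4.22 ± 0.74, adjusted p = 0.00288), the lipid peroxidase gene Gpx4 at 4.74 and 7.22 against 59.4, 33.1 and 106 FPKM (log2FC 3.14 ± 0.58, adjusted p = 0.00375). The metallothionein gene Mt2 stood at 121 and 325 against 822, 1691 and 2473 FPKM (log2FC 2.92 ± 0.54, adjusted p = 0.0037). Prdx2, a peroxiredoxin, fell (210.0 and 666 against 29.4, 30.9 and 37.8 FPKM, log2FC −3.49 ± 0.49, adjusted p = 0.00101), and was as low in the KO embryos (36.1, 30.5 and 42.4). Of 33 genes of the vacuolar ATPase and the lysosome 21 rose and none fell (12 to 20 with 1 library left out, at 12 without control embryo 1 and 13 without arrested embryo 3, and 13 with median-of-ratios scaling). Lamp2, of the lysosomal membrane, was at 34.7 and 18.9 FPKM in the control libraries, and 251, 441 and 278 in the arrested ones (log2FC 3.56 ± 0.41, adjusted p = 0.0004), the protease gene Ctsl at 133 and 74.1 against 532, 836 and 1012 FPKM (log2FC 2.93 ± 0.40, adjusted p = 0.000874). The proton pump gene Atp6v0e stood at 221 and 313 against 1538, 1308 and 1601 FPKM (log2FC 2.49 ± 0.32, adjusted p = 0.000637). Of 28 autophagy genes 11 rose and 1 fell (6 to 13 rises with 1 library left out, at 6 without control embryo 1 and 7 without arrested embryo 2, and 5 rose and 4 fell with median-of-ratios scaling). Among the rises, Gabarapl2 of the autophagosome coat was at 71.2 and 119.9 against 1357, 1799.9 and 1868 FPKM (log2FC 4.15 ± 0.38, adjusted p = 0.000199). Map1lc3a stood at 2.55 and 33.9 against 273, 319 and 454 FPKM (adjusted p = 0.00152), and the cargo receptor gene Sqstm1 rose from 0.25 and 1.80 to 17.4, 12.3 and 14.1 FPKM (adjusted p = 0.00607).

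**Figure D4:**
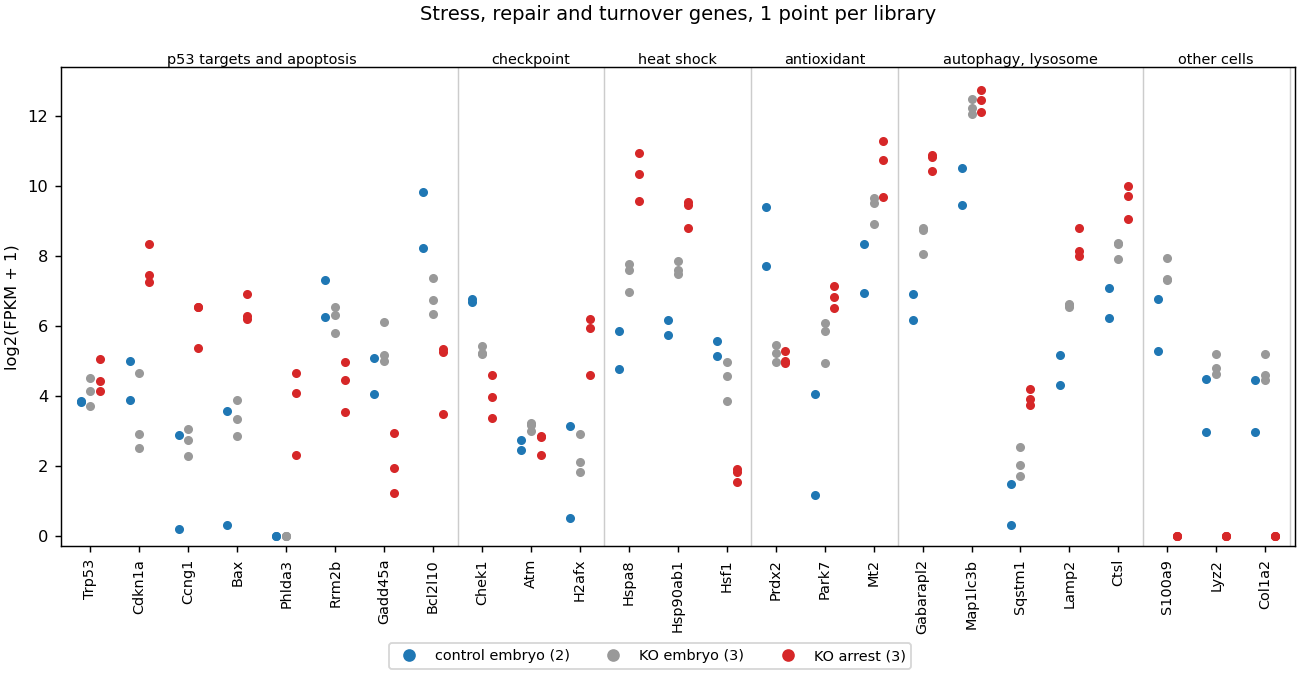
Levels of 25 stress, repair and turnover genes and markers of other cells as log2(FPKM + 1), 1 point per library, for the control embryos (blue), KO embryos (grey) and arrested embryos (red). Atm overlaps between the groups, and Trp53 lies slightly higher in the arrested embryos without passing the test. Cdkn1a, Ccng1, Bax and Hspa8 stand highest in the arrested embryos, and S100a9, Lyz2 and Col1a2 are at 0 in them.

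The counts of cell cycle genes changed with the scaling, as those of all genes did. Of 66 cyclin and mitosis genes 14 rose and 2 fell as deposited (9 to 20 rises with 1 library left out, at 9 without arrested embryo 2 or arrested embryo 3), and 6 rose and 10 fell with median-of-ratios scaling. The 14 rises were 21.2% of the list, near the 19.1% of all genes. With median-of-ratios scaling 12.7% of all genes rose and 15.2% fell. Ccnb1, cyclin B1, was at 54.2 and 177 FPKM in the control libraries, and 654, 1051 and 1347 in the arrested ones (log2FC 3.30 ± 0.51, adjusted p = 0.00159), and Cdc20, an activator of the anaphase-promoting complex, at 13.9 and 34.3 against 108, 140.0 and 138 FPKM (log2FC 2.49 ± 0.45, adjusted p = 0.00345). Cdk1 rose from 16.1 and 19.3 to 51.6, 71.3 and 88.0 FPKM (adjusted p = 0.00735). Plk4, the kinase of centriole duplication, fell (47.8 and 104 against 32.2, 10.8 and 26.1 FPKM, adjusted p = 0.0406). Of 44 DNA replication genes 13 rose and none fell (5 to 13 rises with 1 library left out, at 5 without arrested embryo 2 or control embryo 1 and 7 without arrested embryo 1 or arrested embryo 3 or KO embryo 1 or KO embryo 2 or KO embryo 3, and 5 rose and 1 fell with median-of-ratios scaling). Gins1, of the replicative helicase, was at 0.798 and 4.49 against 62.3, 98.7 and 71.3 FPKM (log2FC 4.61 ± 0.63, adjusted p = 0.000865). The clamp loader gene Rfc2 stood at 0.139 and 1.46 against 13.9, 36.1 and 19.7 FPKM (adjusted p = 0.00491). The helicase gene Mcm2 was at 13.5 and 18.3 against 10.9, 19.9 and 15.8 FPKM (adjusted p = 0.947). Nucleotide synthesis rose in 18 of 32 genes and fell in 1 (11 to 16 rises with 1 library left out, at 11 without arrested embryo 2, and 13 rose and 3 fell with median-of-ratios scaling). The nucleoside diphosphate kinase genes Nme1 (5.40 and 11.1 against 322, 365 and 377 FPKM, log2FC 5.33 ± 0.39, adjusted p = 0.000128) and Nme2 (16.5 and 46.4 against 447, 728 and 739 FPKM, adjusted p = 0.000295) rose. So did Dtymk, thymidylate kinase (16.6 and 16.4 against 243, 189.9 and 218 FPKM, adjusted p = 0.00021). The Cdk1 call was lost under 1 of the other scalings (up to 0.0796). The Plk4 call was lost with any 1 of 6 libraries left out (adjusted p up to 0.165, without control embryo 2).

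Among chromatin regulators the calls depended on the libraries and the processing. Of 43 Polycomb, Trithorax and remodelling genes 3 rose and 7 fell as deposited, 1 and 14 with median-of-ratios scaling, and 4 and 1 without control embryo 1. The falls numbered 1 to 5 with 1 library left out, at 1 without control embryo 1, 2 without arrested embryo 3, 3 without KO embryo 1 or KO embryo 3 and 4 without arrested embryo 1 or KO embryo 2 or control embryo 2. These too are long genes (median 5139 bases), and with the trend on length removed 7 rose and 3 fell (median 0.28, against −0.09). Bmi1, of Polycomb complex 1, fell (1425 and 669 against 130.4, 47.1 and 50.7 FPKM, log2FC −3.83 ± 0.49, adjusted p = 0.000637). Ezh2, the H3K27 methyltransferase, was at 45.3 and 40.5 against 14.6, 19.1 and 11.8 FPKM (adjusted p = 0.0387), and its partner Eed at 40.4 and 30.1 against 70.0, 44.3 and 62.6 FPKM (adjusted p = 0.266). Smarce1, of the SWI/SNF remodeller, rose (3.03 and 4.59 against 20.5, 17.3 and 25.5 FPKM, adjusted p = 0.00785). Of 32 genes of KAP1-dependent heterochromatin 3 rose (0 to 8 with 1 library left out, at 0 without control embryo 1, 1 without arrested embryo 1 or arrested embryo 2 or arrested embryo 3 and 8 without control embryo 2) and 3 fell, with a median that changed sign with the scaling (none rose and 3 fell with median-of-ratios scaling). Zfp57, which keeps imprints after fertilisation, was at 96.3 and 186 FPKM in the control libraries, and 30.2, 22.9 and 20.7 in the arrested ones (log2FC −2.42 ± 0.46, adjusted p = 0.00402), and Zfp281 at 15.00 and 28.0 against 0.316, 0.579 and 0.0417 FPKM (log2FC −4.06 ± 0.54, adjusted p = 0.00075). Of 16 DNA methylation genes 1 rose (0 to 3 with 1 library left out, at 0 without arrested embryo 1 or arrested embryo 3 or KO embryo 1 or KO embryo 2 or KO embryo 3 or control embryo 1 and 3 without control embryo 2) and 1 fell, while none rose and 2 fell with median-of-ratios scaling. Dnmt1 (0.828 and 2.77 against 3.82, 1.44 and 2.90 FPKM, adjusted p = 0.639) and Dnmt3a (8.22 and 6.14 against 10.4, 7.71 and 8.27 FPKM, adjusted p = 0.747) overlapped. Of 23 genes for histone variants and linker histones 5 rose and none fell as deposited (2 to 6 rises with 1 library left out, at 2 without control embryo 1 and 3 without arrested embryo 2 or arrested embryo 3 or KO embryo 3), and 4 rose and 4 fell with median-of-ratios scaling. As deposited the rises were 21.7% of the list, against 19.1% of all genes. H3f3a, for histone H3.3, was at 141 and 107 against 684, 806 and 1168 FPKM (log2FC 2.80 ± 0.37, adjusted p = 0.000679), and H2afz, for H2A.Z, at 301 and 607 against 2125, 1926 and 1512 FPKM (log2FC 2.10 ± 0.40, adjusted p = 0.00405). The oocyte linker histone gene H1foo was at 20.3 and 103 against 24.7, 10.7 and 8.30 FPKM (adjusted p = 0.12). The Ezh2 call was lost with any 1 of 7 libraries left out (adjusted p up to 0.102, without control embryo 1).

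Imprinted genes were few above the threshold. Of 9 paternally expressed ones 3 rose (1 to 2 with 1 library left out, at 1 without arrested embryo 1 or KO embryo 1 or KO embryo 2 or KO embryo 3 or control embryo 1) and 1 fell (1 rose and 1 fell with median-of-ratios scaling). Impact, a regulator of translation under stress, was at 0.335 and 1.86 FPKM in the control libraries, and 19.4, 11.5 and 15.2 in the arrested ones (log2FC 3.04 ± 0.53, adjusted p = 0.00287), and higher in the KO embryos (85.9, 170.3 and 147) than in any of these. Mcts2 showed the same order of the 3 groups, with 0.996 and 2.77 against 14.5, 4.85 and 9.98 FPKM (adjusted p = 0.0308) and 111, 89.0 and 80.7 in the KO embryos. Of 16 maternally expressed ones 1 rose and 2 fell (1 to 3 falls with 1 library left out, at 1 without arrested embryo 2 or arrested embryo 3 or control embryo 1), with Gatm, an enzyme of creatine synthesis, at 11.9 and 1.85 in the controls and listed at 0 in all arrested embryos (adjusted p = 0.0129). Of 18 m6A genes 2 rose and 3 fell (1 to 5 falls with 1 library left out, at 1 without arrested embryo 2 or arrested embryo 3 or control embryo 1 and 5 without control embryo 2, and 1 rose and 4 fell with median-of-ratios scaling). The core writer subunits differed: Mettl14 rose (0.138 and 0.775 against 10.1, 20.8 and 12.03 FPKM, log2FC 3.37 ± 0.67, adjusted p = 0.00514). Mettl3 was at 3.51 and 3.46 against 2.56, 0.74 and 4.15 FPKM (adjusted p = 0.592). The reader gene Igf2bp3 fell (34.1 and 31.8 against 5.93, 6.78 and 6.97 FPKM, log2FC −2.17 ± 0.43, adjusted p = 0.00534). So did the eraser gene Alkbh5 (271 and 61.1 against 38.6, 24.1 and 20.2 FPKM, adjusted p = 0.0328). The Mcts2 call was lost with any 1 of 6 libraries left out (adjusted p up to 0.128, without control embryo 1) and under 3 of the other scalings (up to 0.0816). The Alkbh5 call was lost with any 1 of 3 libraries left out (adjusted p up to 0.249, without control embryo 1).

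Structural, transport and cholesterol lists differed in their share of rises. As deposited it was near the 19.1% of all genes for actin and tubulin, vesicle traffic and cholesterol genes. The share was higher for ER translocon and nuclear pore genes. With median-of-ratios scaling the actin and tubulin share was near that of all genes (12.7% higher), and 4 cholesterol genes rose. Of 40 actin and tubulin genes 8 rose and 3 fell (5 to 8 rises with 1 library left out, at 5 without arrested embryo 2 or arrested embryo 3 or control embryo 1, and 5 rose and 4 fell with median-of-ratios scaling). Pfn1, profilin, was at 2.70 and 78.6 FPKM in the control libraries, and 535, 718 and 1245 in the arrested ones (log2FC 5.51 ± 1.01, adjusted p = 0.00353). Cfl1, cofilin, stood at 112 and 216 against 465, 736 and 784 FPKM (log2FC 2.05 ± 0.41, adjusted p = 0.00528). Actb overlapped (768 and 187 against 565, 485 and 359 FPKM, adjusted p = 0.729). Rdx, radixin, which ties actin to the membrane, fell (83.4 and 90.4 against 26.7, 20.1 and 33.0 FPKM, adjusted p = 0.0104). Of 28 genes for the ER translocon and glycosylation 12 rose and 2 fell (6 to 15 rises with 1 library left out, at 6 without control embryo 1 and 7 without arrested embryo 3). The signal sequence receptor gene Ssr2 was at 1.91 and 12.7 against 135, 126 and 173 FPKM (log2FC 4.52 ± 0.59, adjusted p = 0.000676), and Tram1, which helps proteins into the translocon, fell (128 and 181 against 40.7, 14.4 and 10.4 FPKM, log2FC −2.98 ± 0.57, adjusted p = 0.00415). Vesicle traffic had 9 rises (6 to 14 with 1 library left out, at 14 without control embryo 2) and no fall among 43 as deposited, a share near the 19.1% of all genes, and 4 rose and 3 fell with median-of-ratios scaling. The smallest p was that of the SNARE gene Vamp8 (27.5 and 35.9 against 225, 359 and 336 FPKM, log2FC 3.22 ± 0.37, adjusted p = 0.000405). Of 48 nuclear pore and karyopherin genes 13 rose and 4 fell (5 to 20 rises with 1 library left out, at 5 without control embryo 1, 8 without arrested embryo 2 and 20 without control embryo 2, and 6 rose and 5 fell with median-of-ratios scaling). Ran (47.4 and 40.6 against 256, 253 and 246 FPKM, adjusted p = 0.00302) and its binding protein gene Ranbp1 (1.33 and 5.60 against 186, 302 and 120.0 FPKM, adjusted p = 0.000713) rose. The import receptor genes Kpna3 (77.5 and 122 against 18.5, 9.06 and 11.4 FPKM, log2FC −2.87 ± 0.48, adjusted p = 0.00231) and Ipo8 (54.3 and 65.7 against 9.76, 4.05 and 5.83 FPKM, adjusted p = 0.00179) fell. Of 20 cholesterol genes 4 rose (2 to 6 with 1 library left out, at 2 without control embryo 1) and 1 fell, the latter being Insig1, which holds back sterol synthesis (3364 and 280.4 against 145, 71.1 and 41.5 FPKM, adjusted p = 0.0126). The Insig1 call was lost without control embryo 1 (adjusted p = 0.0898).

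The summed levels of neutrophil and macrophage, fibroblast, cumulus and red cell markers were lower in every arrested embryo than in both controls, and those of germ layer, sperm and testis markers were not. S100a9, a neutrophil calcium-binding protein gene, was at 38.1 and 108 FPKM in the controls, 157, 159 and 245 in the KO embryos and listed at 0 in all arrested embryos. Lyz2 (6.75 and 21.5 in the controls) and the granule gene Ngp (5.10 and 13.2) were likewise at 0, as were 11 of the 13 neutrophil and macrophage markers. The summed FPKM of 10 fibroblast markers was 17.4 and 69.8 in the controls, 60.1 to 93.7 in the KO embryos and 0.0513 to 2.90 in the arrested embryos, with the collagen gene Col1a2 at 6.85 and 20.8, then at 22.9, 21.0 and 35.5 in the KO embryos and 0 in the arrested ones. The sum over 14 cumulus cell markers was 26.5 and 25.6 in the controls, 7.95 to 15.8 in the KO embryos and 6.75 to 11.2 in the arrested embryos. The 12 germ layer markers summed to 7.60 and 23.9 in the controls and to 29.2, 35.5 and 7.57 in the arrested embryos, the 9 red cell markers to 14.6 and 66.5 and 0.437 to 10.1, and the 8 sperm and testis markers to 0 and 6.36 and 0 to 3.66. Sex-linked genes, 6 in number, summed to 22.0 and 12.4 in the controls and to 33.8, 27.0 and 24.0 in the arrested embryos, and Eif2s3x, the one tested, did not pass. The part of other cells in the falls described above was not tested. Fewer cells of a type and less RNA per cell cannot be told apart in these libraries.

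A small set of genes was estimated closely enough to bound its change in FPKM as deposited. For 36 genes the 95% interval of the log2 fold change lay within −1 and 1 as deposited. The most abundant of them was Calm2, calmodulin, at 1911 and 2257 FPKM in the control libraries, and 3346, 1625 and 1841 in the arrested ones (log2FC 0.05, interval −0.79 to 0.90). The RNA helicase gene Ddx3x was at 229.7 and 149 against 190.0, 223 and 221 FPKM (interval −0.56 to 0.93) and Cdca8 (borealin), of the chromosomal passenger complex, at 137 and 136 against 140.5, 134 and 127 FPKM (interval −0.73 to 0.67). Ypel5, Cript, Naa50, Zc3h15, Yipf4, Siah1b and Apitd1 complete the 10 most abundant. With median-of-ratios scaling the estimate was −0.69 for Calm2, −0.55 for Ddx3x and −0.77 for Cdca8, so that equal FPKM went with a lower value relative to the middle of all genes. The bound was set for FPKM as deposited and does not carry over to the other scalings. Of the 58 gene lists, 47 kept the sign of their median under the 4 scalings.

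**Figure D5:**
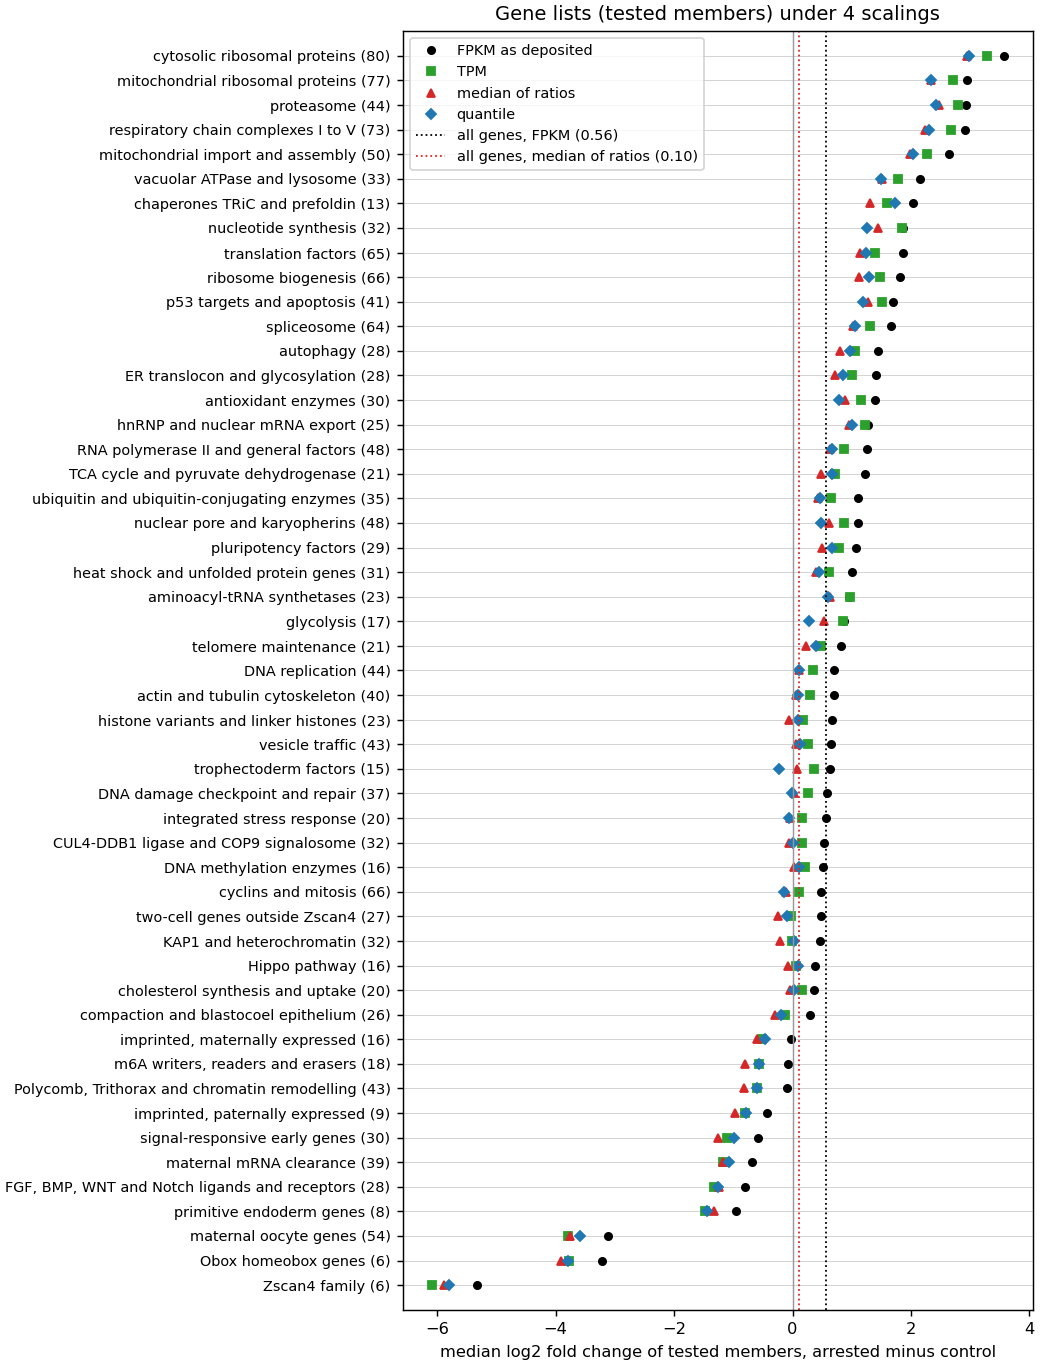
Median log2 fold change (arrested minus control embryos) of the tested members of each gene list with at least 6 of them, under 4 scalings, with the number tested in brackets. Dotted lines mark the median of all genes as deposited (0.56) and with median-of-ratios scaling (0.10). Ribosomal, proteasome and respiratory chain lists lie at the top and the oocyte, Obox and Zscan4 lists at the bottom under each scaling.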

How the data were processed

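Transcript tables from StringTie were deposited by the authors, 1 per library, with FPKM, TPM and read coverage (a signal per transcript) as normalized values. The submitters' processing notes name STAR 0.6.0, StringTie, DESeq2 and the mm9 build. FPKM, TPM and coverage per gene were used as the authors deposited them, and read counts were not used here. FPKM were summed over rows of the same gene symbol, and rows without a symbol (0.549 to 0.889% of FPKM in the 5 libraries) were dropped. Genes with at least 1 FPKM in at least 2 of the 5 libraries were kept.

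Values were tested as log2(FPKM + 1), with limma 3.58.1 in R 4.3.3 (trend of the variance on the mean), over 8 embryo libraries, and p-values were adjusted over all 10737 genes by the Benjamini-Hochberg method. Fold changes on this scale understate the change of low genes. Standard errors follow ± signs, and depth is known only in relative terms, from coverage. Lengths come from GENCODE on GRCm38 and promoters from RefSeq on GRCm38.p6. Tables were handled with pandas 2.3.3 and numpy 2.4.6.

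The members and all 58 gene lists were chosen with earlier results of these data known. Named genes are Dcaf11 and Trim28, for each list up to 4 called members with the smallest p, its first 2 members as listed and up to 3 called members that moved against its majority, and, in each direction, the 10 called genes with the largest difference in mean FPKM, the 10 others with the smallest p, the 8 most abundant genes near absent from 1 group, and the 10 most abundant with a narrow interval around 0. Sat2 was added after its values were seen. Alternatives were another pseudocount (0.1), filter, scaling, weights per library, sample set, length correction, a replicate block, a minimum log2 fold change of 1 and leaving out each library.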

Additional observations from a re-analysis of the deposited data

How the results depend on the processing

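Calls of arrested against control embryos numbered 3146, and 2113 to 3700 with 1 of the 8 libraries left out (1226 to 2635 higher and 700 to 1065 lower). The lowest number of rises was reached without control embryo 1 and the lowest number of falls without arrested embryo 2. Median-of-ratios scaling gave 1361 rises. Weights per library gave 1533 calls (1027 higher, 506 lower), and a fit of only the 5 libraries gave 718 falls. Arrested against KO embryos gave 1038 calls, 278 to 1893 with 1 library left out, 2116 with all 12 libraries in the fit, 2518 when libraries were weighted and 532 without a filter on low values. A fit of only the 5 libraries cannot give that comparison. The cause of these shifts was not tested. Deviations of same-numbered libraries from their group means correlated between −0.105 and 0.028. With 2 or 3 libraries per group such deviations depend on each other, so they cannot tell whether the replicate numbers pair samples. With a replicate block 2089 genes were called (712 lower) against the controls and 556 against the KO embryos. No named gene changed direction and call together under any alternative run. The shallower arrested libraries limit what a value of 0 there can show.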
